A study of Mus musculus with 5 samples.

Results

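The 10 genes of the immediate early class, Fos, Fosb, Jun, Junb, Egr1, Atf3, Ier2, Nr4a1, Dusp1 and Zfp36, were followed through every heart pool of a study of the lncRNA Charme. The list was drawn up by function, though with earlier results of these data known, as a check on how strongly the pools differed in the response that tissue handling can trigger, and the rule that picks its members uses no measured value. All 10 were found by symbol among the 49671 counted genes, and all 10 were among the 14880 that passed the filter of at least 10 counts in at least 2 pools.

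Polyadenylated RNA was sequenced from whole hearts of mice of the C57BL6/J strain at postnatal day 2. The 3 CharmeWT pools held 9 hearts each, and the 2 CharmeKO pools held 3 hearts each, from littermates pooled by genotype before RNA extraction. The CharmeKO allele carries a PolyA signal inserted into the Charme locus, and no other allele or treatment is given for either group. Pool size and genotype go together and cannot be told apart, and p-values measure only the spread between these pools.

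Immediate early genes are transcribed within minutes of a stimulus from factors that the cell already holds, without new protein synthesis, and most of their mRNAs decay quickly. Growth factors, stretch, ischemia and mechanical or enzymatic handling of tissue all induce them, through MAP kinases that act on SRF and its ELK partners and through CREB at cyclic AMP response elements. In the heart they are known from the early response to pressure load, and in transcriptome data they are known as a trace of the interval between dissection and lysis.

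The make-up of the pools bears on every value given here. Counts on genes ranged from 16721055 to 21646378 per pool, and Charme itself had 39.3, 10.4 and 14.0 CPM (counts scaled to library size, here always with TMM normalization) in CharmeWT pools 1 to 3 against 4.04 and 3.54 CPM in CharmeKO pools 1 and 2. CharmeKO pool 1 stood apart, with 21.1% of its counts on mitochondrial genes against 9.68% to 11.1% in the others. Salivary gland genes took 2.64% of the counts of CharmeKO pool 2, 0.0294% in CharmeKO pool 1 and at most 0.000372% in CharmeWT pools. The cardiomyocyte markers summed to between 56480 and 69075 CPM in the 5 pools with none of the 12 at 0, so heart muscle transcripts were abundant in each.

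The upstream DNA of these genes shows the letters through which several of them are known to be induced. RefSeq promoter windows on GRCm38.p6 were searched for 8 of the 10 genes, without Egr1 and Ier2. The 250 bases before the start site were searched on both strands. The half-site of the cyclic AMP response element, TGACG or CGTCA, was present in 6 of the 8 windows (Fos, Fosb, Junb, Atf3, Nr4a1 and Dusp1) and in 17.8% of the 32851 windows of the genome-wide set. Fos, Jun, Junb and Nr4a1 are printed because these windows overlapped no annotated exon and because the genes fell on opposite sides in CharmeKO pool 1, Nr4a1 highest and the others lowest. Capitals mark the half-site on either strand, and each line reads 5′ to 3′ on the strand of the gene. Fos lies at chr12:85473640-85473889 (+), Jun at chr4:95052223-95052472 (-), Junb at chr8:84978749-84978998 (-) and Nr4a1 at chr15:101266596-101266845 (+).
Fos: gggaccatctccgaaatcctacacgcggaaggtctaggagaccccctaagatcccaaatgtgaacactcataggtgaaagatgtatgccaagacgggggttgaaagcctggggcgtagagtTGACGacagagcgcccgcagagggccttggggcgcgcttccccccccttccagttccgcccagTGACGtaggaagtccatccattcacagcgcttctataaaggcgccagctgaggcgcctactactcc
Jun: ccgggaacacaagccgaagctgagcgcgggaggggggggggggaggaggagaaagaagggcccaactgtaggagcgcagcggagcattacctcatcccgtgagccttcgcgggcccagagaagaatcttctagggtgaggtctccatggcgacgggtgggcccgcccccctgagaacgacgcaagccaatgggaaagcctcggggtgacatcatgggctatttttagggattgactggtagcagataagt
Junb: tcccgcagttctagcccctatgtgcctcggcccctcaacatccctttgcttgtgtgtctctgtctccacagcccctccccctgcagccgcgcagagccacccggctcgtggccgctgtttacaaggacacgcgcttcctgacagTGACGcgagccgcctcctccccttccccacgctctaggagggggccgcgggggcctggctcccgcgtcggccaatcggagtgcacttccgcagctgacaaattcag
Nr4a1: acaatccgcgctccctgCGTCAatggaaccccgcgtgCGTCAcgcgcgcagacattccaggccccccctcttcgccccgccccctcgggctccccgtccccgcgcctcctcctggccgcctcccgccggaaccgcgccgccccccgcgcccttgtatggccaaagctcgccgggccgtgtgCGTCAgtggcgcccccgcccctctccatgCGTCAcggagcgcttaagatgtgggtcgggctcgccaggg
The Nr4a1 window held 4 half-sites, the Fos window 2, the Junb window 1 and the Jun window none. Of the windows not printed, that of Dusp1 held 3, those of Fosb and Atf3 1 each and that of Zfp36 none. Fosb and Atf3 were, like Nr4a1, highest in CharmeKO pool 1. A link between half-sites and levels was not tested. The Nr4a1 window lies before the RefSeq start but inside the longer span that GENCODE M21 gives the gene.

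The full palindrome TGACGTCA, which contains the half-site on both strands, was found only in the window of Dusp1 among the 8, against 1.55% of all windows. A CArG box, the SRF motif, searched as CCWWWWWWGG with W for A or T, was found in 1 window, that of Zfp36, against 1.47% of all windows. Looser forms of the motif, sites further upstream and the promoter of Egr1 were not searched. The sequence TATAA on the sense strand was found in 1, that of Fos, against 16.0%, and the AP-1 site TGACTCA or TGAGTCA in 0 of 8, against 4.46%. A match describes the letters of this short window and says nothing of whether a factor was bound in these hearts.

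The 10 genes were compact, with a median exon length of 3250 bp and a median of 2.5 exon blocks, against 4239 bp and 9 blocks over all genes tested. Their exons had a median GC content of 55.8%, against 49.8% over all genes tested. Ier2, a single exon at chr8:84661331-84662852 (-), and Junb were the most GC-rich, at 60.9% and 62.6%. This matters for CharmeKO pool 1, where a trend on gene length and GC content, fitted across all genes, lowered every one of the 10, by 0.51 on the log2 scale for Egr1 and by 0.03 for Atf3, the least affected.

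On the length-normalized scale (FPKM, counts scaled by exon length and library size), Jun and Ier2 had the highest levels in CharmeWT hearts. Jun stood at 37.1 ± 7.84 FPKM (SD, n = 3 pools) and Ier2 at 28.8 ± 3.44, and their gap was within the sum of their SDs. Dusp1 followed at 16.9 ± 4.17 FPKM, apart from both neighbours in the order by more than the sum of SDs. Egr1 (9.25 ± 2.37 FPKM), Junb (8.74 ± 1.26), Nr4a1 (8.69 ± 2.95), Zfp36 (7.15 ± 1.29), Atf3 (6.07 ± 2.85) and Fos (4.07 ± 2.28) formed a run in which no gene differed from the next beyond that spread. Fosb was lowest, at 0.0601 ± 0.0309 FPKM, and the only one of the 10 under 1 FPKM in every pool. In CharmeKO hearts Jun and Ier2 again stood first, at 22.3 ± 11.2 and 22.1 ± 9.25 FPKM (n = 2 pools), and Fosb last, and the only neighbours further apart than their SDs were Fos and Fosb.

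None of the 10 genes passed the test between the genotypes. Of the 10, 0 were called higher and 0 lower in CharmeKO hearts by edgeR's quasi-likelihood test, where a call is an adjusted p under 0.1 and a mean of at least 1 FPKM in a genotype. Over all genes tested, 1.53% were called higher and 0.524% lower. The likelihood ratio test and DESeq2 also called 0 of the 10. At an unadjusted p under 0.05 stood 4, of which Fosb and Atf3 were higher and Jun and Egr1 lower in CharmeKO hearts, beside 2767 of the 14880 genes tested. The estimates were higher for 3 genes and lower for 7, and their median log2 fold change was -0.25, against 0.02 over all genes tested. With 2 pools against 3 this absence of calls does not show that the genes were alike in the 2 genotypes.

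**Figure D1:**
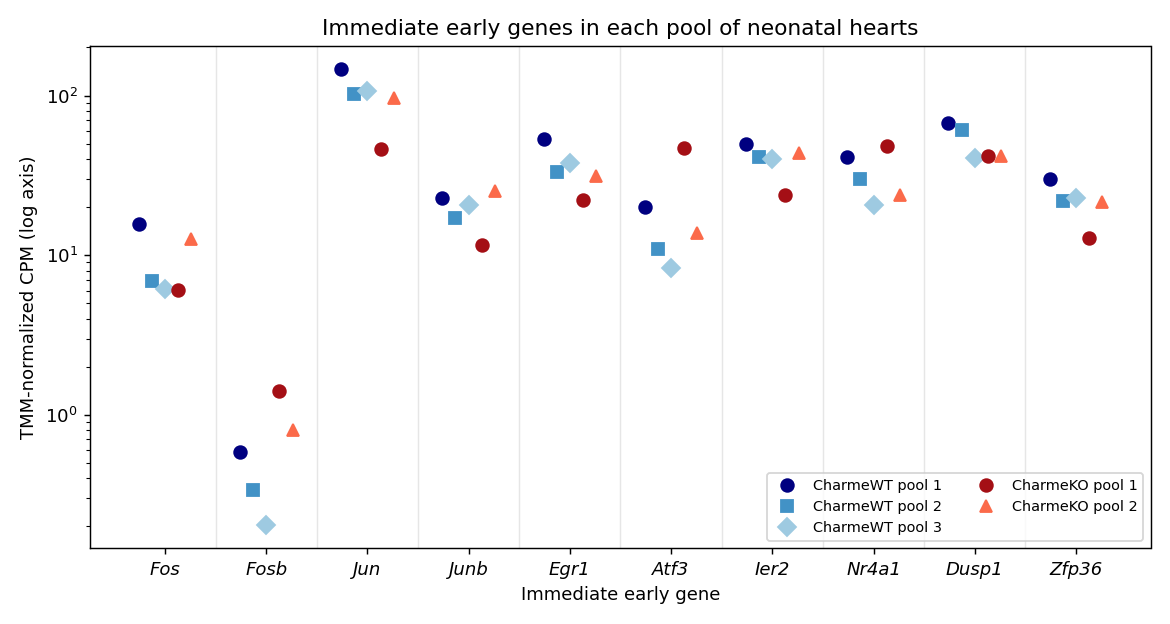
TMM-normalized CPM (log axis) of each immediate early gene in each of the 5 pools, with CharmeWT pools in blue and CharmeKO pools in red, 1 point per pool. CharmeWT pool 1 is the highest of the CharmeWT pools for all 10 genes, and CharmeKO pool 1 (dark red) is the lowest of the 5 for 6 genes and the highest for Fosb, Atf3 and Nr4a1.

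The FOS and JUN families form the dimers of the AP-1 transcription factor. Fos (ENSMUSG00000021250, chr12:85473890-85477273, + strand, GENCODE M21 on GRCm38 here and for the other genes), the prototype of the class, had 324, 121 and 121 counts in CharmeWT pools 1 to 3 and 85 and 283 counts in CharmeKO pools 1 and 2. These were 15.7, 6.85 and 6.12 CPM against 6.02 and 12.7 CPM. One pool of each genotype was high (CharmeWT pool 1 and CharmeKO pool 2), the other 3 lay close together, and the genotypes overlapped. The log2 fold change was -0.02 ± 0.44 (SE), with an adjusted p of 0.986 by edgeR's quasi-likelihood test. It became 0.40 without CharmeKO pool 1 and -0.68 without CharmeKO pool 2, so its direction rested on single pools.

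Fosb (chr7:19302696-19310051, -), a close relative of Fos, was near the limit of detection, with 12, 6 and 4 counts in CharmeWT pools and 20 and 18 in CharmeKO pools. In CPM these were 0.583, 0.340 and 0.202 against 1.42 and 0.807. It was the only one of the 10 with both CharmeKO pools above every CharmeWT pool, an order that 17.8% of all genes tested shared. Its log2 fold change was 1.48 ± 0.57 with an adjusted p of 0.221 by the quasi-likelihood test, and its level under 1 FPKM barred a call in any case. DESeq2 gave it no adjusted p.

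Jun (chr4:95049034-95052222, -), the main partner of the FOS proteins and the most abundant of the 10 per length, was counted 3030, 1796 and 2104 times in CharmeWT pools and 651 and 2151 times in CharmeKO pools. Its CPM of 147, 102 and 106 compared with 46.1 and 96.4. Both CharmeKO pools lay below every CharmeWT pool, but CharmeKO pool 2 did so narrowly and CharmeKO pool 1 by far. Its log2 fold change was -0.73 ± 0.30 with an adjusted p of 0.243 by the quasi-likelihood test, and it was -0.30 (adjusted p = 0.590) without CharmeKO pool 1.

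Junb (chr8:84974484-84978718, -), a weaker activator than Jun that can oppose it, had 22.8, 17.0 and 20.5 CPM in CharmeWT pools and 11.5 and 25.2 CPM in CharmeKO pools. The CharmeKO pools thus enclosed the CharmeWT range, with CharmeKO pool 2 the highest and CharmeKO pool 1 the lowest of the 5. Its fold change on the log2 scale was -0.12 ± 0.31 (adjusted p = 0.859, quasi-likelihood test), and it turned to 0.33 without CharmeKO pool 1.

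Egr1, Nr4a1 and Atf3 encode transcription factors outside AP-1 in the strict sense. Egr1, a zinc finger factor and a classical SRF target, had 53.4, 33.0 and 38.0 CPM in CharmeWT pools and 22.2 and 31.3 CPM in CharmeKO pools. The genotypes did not overlap, though CharmeKO pool 2 lay just under CharmeWT pool 2. Egr1 had a log2 fold change of -0.63 ± 0.26 with an adjusted p of 0.239 by the quasi-likelihood test, and -0.42 (adjusted p = 0.370) after the length and GC correction. It was -0.41 without CharmeKO pool 1, also -0.41 without CharmeWT pool 1, and -0.91 without CharmeKO pool 2.

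Nr4a1 (chr15:101254269-101274795, +), an orphan nuclear receptor, ran the other way in CharmeKO pool 1. It had 41.1, 29.9 and 20.5 CPM in CharmeWT pools and 48.0 and 23.7 CPM in CharmeKO pools, so that the genotypes overlapped and CharmeKO pool 1 was the highest. For Nr4a1 the log2 fold change was 0.23 ± 0.34 (adjusted p = 0.739, quasi-likelihood test), and -0.37 without CharmeKO pool 1.

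Atf3 (chr1:191170296-191218039, -), a stress-induced bZIP factor that also answers to the integrated stress response, had the widest log2 range of the 10 with the prior count of 2, 2.48 against 2.30 for Fosb. It was counted 412, 193 and 164 times in CharmeWT pools and 659 and 308 times in CharmeKO pools, or 20.0, 10.9 and 8.30 CPM against 46.7 and 13.8 CPM. CharmeKO pool 1 alone was high, and CharmeKO pool 2 lay inside the CharmeWT range. The pools of Atf3 spanned 5.63-fold in CPM without the prior count, against 7.003-fold for the sparsely counted Fosb. The log2 range of Atf3 was larger than that of 97.1% of all genes tested. Atf3 had a log2 fold change of 1.20 ± 0.48 with an adjusted p of 0.234 by the quasi-likelihood test, and it was 0.07 (adjusted p = 0.956) without CharmeKO pool 1.

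Ier2, a small nuclear protein of the early response, had 49.8, 41.3 and 40.2 CPM in CharmeWT pools and 23.7 and 43.6 CPM in CharmeKO pools. All pools but CharmeKO pool 1 lay close together, and the genotypes overlapped. The log2 fold change was -0.38 ± 0.26 (adjusted p = 0.450, quasi-likelihood test), and -0.01 without CharmeKO pool 1.

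Dusp1 and Zfp36 encode feedback inhibitors, a phosphatase that inactivates p38 and JNK kinases and a protein that drives the decay of AU-rich mRNAs. Dusp1 (chr17:26505590-26562128, -) had 66.9, 60.6 and 40.5 CPM in CharmeWT pools and 41.7 and 41.9 CPM in CharmeKO pools. Its CharmeKO pools were nearly equal and both lay inside the CharmeWT range, at its lower end. The log2 fold change was -0.42 ± 0.23 (adjusted p = 0.349, quasi-likelihood test), and it was -0.42 and -0.43 without CharmeKO pool 1 and pool 2. Omitting CharmeWT pools moved it more, to -0.27 without pool 1 and -0.61 without pool 3. GENCODE M21 lists AC122252.1 and AC122252.4 on the same strand within the span of Dusp1, so its count is uncertain where reads could be shared.

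Zfp36 (chr7:28376784-28380253, -) had 30.0, 21.8 and 22.7 CPM in CharmeWT pools and 12.8 and 21.6 CPM in CharmeKO pools. Both CharmeKO pools were below every CharmeWT pool, CharmeKO pool 2 only narrowly. For Zfp36 the log2 fold change was -0.52 ± 0.27 (adjusted p = 0.324, quasi-likelihood test), and it was -0.20 without CharmeKO pool 1 and -0.96 without CharmeKO pool 2. Jun, Egr1 and Zfp36 were the 3 genes of the 10 with both CharmeKO pools below every CharmeWT pool, an order that 18.2% of all genes tested shared.

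**Figure D2:**
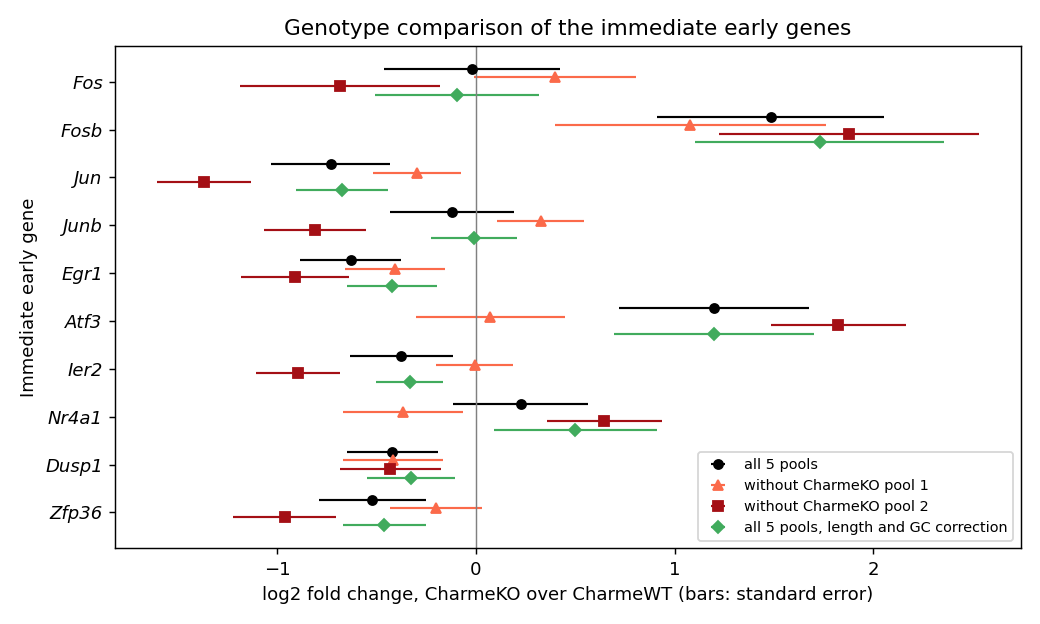
Log2 fold change, CharmeKO over CharmeWT, of each immediate early gene with its standard error, from all 5 pools (black), without CharmeKO pool 1 (orange), without CharmeKO pool 2 (dark red) and from all 5 pools after the length and GC correction (green). Atf3 moves from 1.20 to 0.07 without CharmeKO pool 1, and Jun from -0.73 to -1.37 without CharmeKO pool 2, while Dusp1 stays between -0.43 and -0.33.

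The pools of a genotype also differed among themselves. Within the CharmeWT group, pool 1 was the highest of the 3 pools for 10 of the 10 genes, against 34.6% of all genes tested. It was the highest of all 5 pools for 6 (Fos, Jun, Egr1, Ier2, Dusp1 and Zfp36), against 11.8% of all genes tested. The 10 genes respond to shared signals in the same RNA, so they are not 10 separate observations of that pool.

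The excess of CharmeWT pool 1 differed among the genes. Over the mean of CharmeWT pools 2 and 3 it was 2.43-fold for Fos, 2.15-fold for Fosb and 2.08-fold for Atf3. It was 1.63-fold for Nr4a1, 1.503-fold for Egr1 and 1.41-fold for Jun. Zfp36, Dusp1, Ier2 and Junb showed the smallest excess, from 1.35-fold down to 1.21-fold. The CharmeWT range of Fos on the log2 scale, 1.35, was wider than that of 95.8% of all genes tested, and that of Ier2, 0.31, wider than that of 40.7%.

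CharmeWT pool 1 also held the most Charme RNA and, of the CharmeWT pools, the highest summed level of the epicardial and mesothelial markers, 96.0 CPM against 27.7 and 49.98 CPM. Both CharmeKO pools were above it, at 143 and 134 CPM. The part of these markers in the result was not tested. All of the 6 epicardial and mesothelial markers were detected, and 5 were highest in pool 1 among the CharmeWT pools. The other, Wt1, was lowest there, with 10.2, 11.4 and 12.9 CPM in CharmeWT pools 1 to 3. The macrophage markers summed to 141 CPM there, against 91.8 and 123 CPM in CharmeWT pools 2 and 3 and 121 and 201 CPM in CharmeKO pools 1 and 2, with none of the 8 at 0. In bulk hearts, fewer cells of a type and less RNA per cell cannot be told apart.

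The 2 CharmeKO pools differed from each other in opposite directions for different genes. CharmeKO pool 1 was the lowest of the 5 pools for 6 (Fos, Jun, Junb, Egr1, Ier2 and Zfp36), against 33.9% of all genes tested. It was the highest for 3 of the 10 (Fosb, Atf3 and Nr4a1), against 34.1% of all genes tested. The ratio of CharmeKO pool 2 to pool 1 was 2.18 for Junb (95% interval 1.83 to 2.61, counting error only), 2.10 for Fos (1.65 to 2.71) and 2.09 for Jun (1.91 to 2.28). It was 1.84 for Ier2 (1.62 to 2.09), 1.68 for Zfp36 (1.42 to 2.01) and 1.41 for Egr1 (1.23 to 1.62).

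In the other direction the ratio was 0.295 for Atf3 (95% interval 0.257 to 0.339), lower than for all but 0.612% of the genes tested, and 0.493 for Nr4a1 (0.439 to 0.553). Dusp1, at 1.003 (0.904 to 1.11), and Fosb, at 0.569 (0.284 to 1.13), had intervals that include 1. The intervals of the other 8 did not, with pool 2 higher for 6 and pool 1 higher for 2. The same share of intervals over all genes tested was not computed. By level alone, CharmeKO pool 2 was above pool 1 for 7 of the 10, against 50.5% of all genes tested. For the 6, the difference exceeded that of 76.8% (Egr1) to 94.1% (Junb) of the genes tested. Each side of these ratios is 1 pool, so they compare the pools and not a condition.

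**Figure D3:**
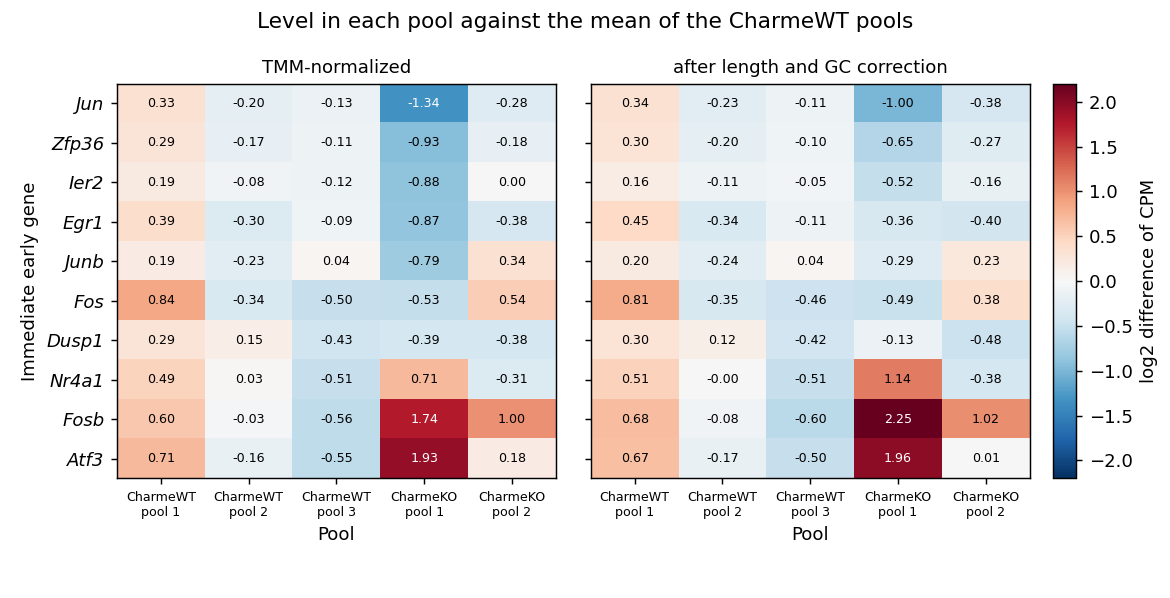
Log2 difference of CPM between each pool and the mean of the CharmeWT pools for the 10 immediate early genes, with TMM normalization (left) and after the length and GC correction (right), on 1 color scale with the values printed. In CharmeKO pool 1, Jun moves from -1.34 to -1.003 and Egr1 from -0.87 to -0.36 with the correction, while Atf3 is at 1.93 and 1.96.

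Set against the mean of the CharmeWT pools, the median log2 level of the 10 genes was 0.36, -0.17 and -0.28 in CharmeWT pools 1 to 3 and -0.66 and -0.09 in CharmeKO pools 1 and 2. By this median CharmeWT pool 1 and CharmeKO pool 1 marked the ends, and CharmeKO pool 2 lay within the CharmeWT range. The mean log2 level of the 10 genes, each centred over all pools, gave another low end. It was 0.45, -0.12 and -0.28 in CharmeWT pools 1 to 3 and -0.12 and 0.07 in CharmeKO pools 1 and 2. By that mean CharmeWT pool 3 was the lowest, and CharmeKO pool 1 stood level with CharmeWT pool 2. Over all genes tested the median was 0.00 to 0.01 in every pool. The distance of CharmeKO pool 1 depended on the correction for gene length and GC content, after which the medians were 0.39, -0.18 and -0.27 in CharmeWT pools and -0.32 and -0.22 in CharmeKO pools. The lowest pool by the median remained CharmeKO pool 1, but only just below CharmeWT pool 3.

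Within CharmeKO pool 1 the corrected levels still ran from -1.003 for Jun and -0.65 for Zfp36 to 1.14 for Nr4a1, 1.96 for Atf3 and 2.25 for Fosb. It was then the lowest of the 5 pools for 5 of the 10 genes in place of 6, with Egr1 lost from them, against 28.3% of all genes. CharmeWT pool 1 kept its place as the highest CharmeWT pool for all 10 under every scaling tried. Without mitochondrial and salivary gland genes, the medians in CharmeKO pools 1 and 2 were -0.66 and -0.09, as with all genes.

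Leaving out CharmeKO pool 2 changed the calls, and leaving out pool 1 did not. Without CharmeKO pool 1, 0 of the 10 were called and 0 had an unadjusted p under 0.05, against 3.06% of genes called higher and 1.27% called lower, and none of the 10 had an adjusted p under 0.480 by the quasi-likelihood test. Without CharmeKO pool 2, 1 of the 10 was called higher (Atf3) and 5 lower (Jun, Junb, Egr1, Ier2 and Zfp36). That comparison called 16.1% of all genes higher and 15.6% lower, with the remaining CharmeKO pool assumed to vary like the CharmeWT pools. Jun then had a log2 fold change of -1.37 (adjusted p = 0.00443) and Atf3 one of 1.82 (adjusted p = 0.00529, both by the quasi-likelihood test). For these 6 genes the CharmeKO pools lay apart as given above, and the fold changes of all 5 pools average over that gap.

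A wider list of early response genes was set beside the 10. Of 51 further early response genes, 48 were tested, and 3 were called, 2 higher and 1 lower in CharmeKO hearts. Over all genes tested, 1.53% were called higher and 0.524% lower. Ctgf (also Ccn2), a secreted matricellular protein, had 111, 81.2 and 65.1 CPM in CharmeWT pools and 452 and 137 CPM in CharmeKO pools (log2 fold change 1.78 ± 0.41, adjusted p = 0.0836, quasi-likelihood test). Nr4a3, an orphan receptor of the family of Nr4a1, had 1.07, 1.75 and 2.02 CPM against 12.3 and 4.08 CPM (2.32 ± 0.48, adjusted p = 0.0667). Bhlhe40, a transcriptional repressor, had 30.5, 36.2 and 36.5 CPM against 14.9 and 21.2 CPM (-0.92 ± 0.22, adjusted p = 0.0985).

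For all 3 the genotypes did not overlap, and the CharmeKO pool further from the CharmeWT pools was pool 1. Without that pool none of the 3 was called. The log2 fold changes were then 0.68 for Ctgf (adjusted p = 0.175, quasi-likelihood test) and -0.69 for Bhlhe40 (adjusted p = 0.103). For Nr4a3 it was 1.34 with an adjusted p of 0.0972, still under 0.1, and the call was lost only because the mean level no longer reached 1 FPKM. None was called with any CharmeWT pool left out, although the log2 fold changes stayed at 1.61 to 2.01 for Ctgf, 2.10 to 2.53 for Nr4a3 and -0.999 to -0.88 for Bhlhe40. Correcting for length and GC content also ended the call of Ctgf (1.68, adjusted p = 0.103). Bhlhe40 was not called with upper-quartile factors, the legacy test, no filter on low counts or the replicate block, with log2 fold changes of -0.95 to -0.89 and adjusted p of 0.105 to 0.134 by the quasi-likelihood test. With the block and the length and GC correction together none of the 3 was called, at adjusted p of 0.280 to 0.307. By mean CPM over the 5 pools the first of the list were Jund, a JUN family member known as less inducible, at 284 to 367 CPM over the 5 pools (-0.01 ± 0.20), the apoptosis inhibitor Mcl1, at 189 to 238 CPM (0.09 ± 0.18), and Ctgf, whose mean rested on CharmeKO pool 1.

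The median log2 fold change of the 48 was -0.01. Their median level against the CharmeWT mean stayed between -0.08 and 0.03 on the log2 scale in all 5 pools. CharmeWT pool 1 was the highest CharmeWT pool for 18 of the 48, and CharmeKO pool 1 the lowest of the 5 pools for 18 of the 48. Over all genes tested these orders held for 34.6% and 33.9%.

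The kinases and transcription factors known to act upstream gave no call. Of 26 tested, 0 were called higher or lower by the quasi-likelihood test, with a median log2 fold change of -0.10. The likelihood ratio test and DESeq2 also called 0. By the quasi-likelihood test 3 had an unadjusted p under 0.05, beside 2767 of the 14880 genes tested. Mapkapk2, a kinase under p38, ranged from 249 to 277 CPM over the pools (-0.02 ± 0.17). Srf itself ranged from 167 to 194 CPM (0.01 ± 0.17). CharmeWT pool 1 was the highest CharmeWT pool for 3 of the 26, and CharmeKO pool 1 the lowest of the 5 for 13.

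Heat shock genes, another class that handling and warming can induce, gave 0 calls in 12 genes by the quasi-likelihood test, with a median log2 fold change of 0.07. At an unadjusted p under 0.05 stood 2, beside 2767 of the 14880 genes tested. These were Hsp90aa1 and Hspe1, which the likelihood ratio test and DESeq2 both called. Hsp90aa1, the inducible HSP90 isoform, was named after its values were seen, with 210, 163 and 169 CPM in CharmeWT pools against 593 and 249 CPM (log2 fold change 1.22 ± 0.31, adjusted p = 0.108 by the quasi-likelihood test). The constitutive chaperones Hspa8 (1058 to 1571 CPM, -0.04 ± 0.24), Hsp90ab1 (943 to 1546 CPM, -0.44 ± 0.22) and Hspd1 of the mitochondrial matrix (330 to 522 CPM, 0.32 ± 0.20) had the highest mean CPM. On the log2 scale the median level of the 12 heat shock genes, against the CharmeWT mean, was 0.07, 0.02 and -0.01 in CharmeWT pools. In CharmeKO pools 1 and 2 it was 0.23 and 0.05. By this median CharmeKO pool 1 was the highest pool, whereas by the median of the 10 immediate early genes it was the lowest. By the mean of those 10 genes CharmeKO pool 1 was not the lowest.

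Of 18 inflammatory early genes, 12 were tested and the quasi-likelihood test called 0, with a median log2 fold change of 0.00. The other 2 tools also called 0. By the quasi-likelihood test 0 had an unadjusted p under 0.05, beside 2767 of the 14880 genes tested. Highest in mean CPM were the adhesion receptor Vcam1, with 78.4, 75.1 and 75.7 CPM in CharmeWT pools against 151 and 70.7 CPM, the NF-κB inhibitor Nfkbia (33.4 to 43.0 CPM) and the macrophage growth factor Csf1 (12.4 to 20.8 CPM). The median level of the 12 tested lay between -0.11 and 0.11 on the log2 scale in all 5 pools. Of the 3 genes named, only Vcam1 had 1 pool far from the others, CharmeKO pool 1.

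**Figure D4:**
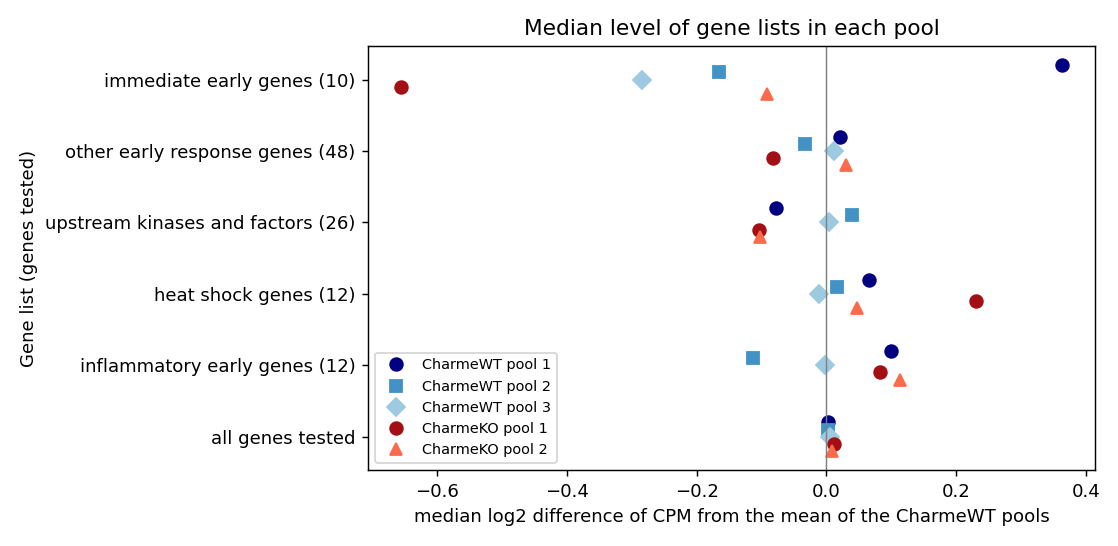
Median log2 difference of CPM from the mean of the CharmeWT pools in each pool, for the 10 immediate early genes, 4 other lists and all genes tested (number of genes in parentheses). The median of the 10 genes runs from -0.66 in CharmeKO pool 1 to 0.36 in CharmeWT pool 1. That of the 48 other early response genes stays between -0.08 and 0.03.

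Cell composition values are given beside these orders. CharmeKO pool 1, lowest for 6 of the 10, also had the lowest summed level of endothelial markers, 928 CPM against 1043 to 1301 CPM in CharmeWT pools and 1088 CPM in CharmeKO pool 2, with 5 of the 8 markers lowest there and none at 0. Pecam1 and Emcn, also of that list, were instead highest in CharmeKO pool 1, at 239.8 and 112 CPM. Their part in the result was not tested. Erythroid markers summed to 2284 and 1619 CPM in CharmeKO pools 1 and 2, against 870 to 1254 CPM in CharmeWT pools. Adipose markers summed to 677 and 2010 CPM, against 494 to 654 CPM. Fabp4 alone gave 627 CPM of the adipose sum in CharmeKO pool 1 and 494 to 648 CPM in CharmeWT pools. The median log2 level of the 7 adipose markers tested, against the CharmeWT mean, was 3.49 and 7.70 in CharmeKO pools 1 and 2. Cardiomyocyte markers in CharmeKO pool 1 summed to 67891 CPM, inside the CharmeWT range of 56480 to 69075 CPM. Single markers of that list differed, with 2 of the 12, Myh6 and Actn2, lowest in CharmeKO pool 1. Myh6 had 7348 CPM there, against 12536 to 17256 CPM in the other pools. Myh7, Tnnt2, Tnni3, Myl2 and Pln were instead highest there. Salivary gland markers summed to 348 CPM in CharmeKO pool 1 and to 25642 CPM in CharmeKO pool 2, against 0.396 to 3.64 CPM in CharmeWT pools, where 6 of the 11 (Bpifa2, Smgc, Prol1, Muc19, Dcpp2 and Pip) were at 0. The part of salivary gland transcripts in the result was not tested. Of the 10 genes, CharmeKO pool 2 was inside the CharmeWT range for 5 and CharmeKO pool 1 for 1, Dusp1. The same share over all genes tested was not computed, so these counts have no background to be read against.

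By likeness of pattern, measured as the Euclidean distance between log2 CPM centred over the 5 pools and the mean profile of the 10, the nearest genes outside the lists were Gm5914 (0.127), 0610040B10Rik (0.153), Tmem81 (0.160), Eno2 (0.190) and Dtwd2 (0.218). The mean profile peaked in CharmeWT pool 1, so that all 5 were highest there follows from how they were chosen. Eno2, neuronal enolase, had 2.91, 1.81 and 1.47 CPM in CharmeWT pools and 1.63 and 1.97 CPM in CharmeKO pools. Gm5914, the nearest, was sparsely counted, at 0.607 to 1.07 CPM over the pools. The 10 genes lay further from their own mean profile, from 0.527 for Dusp1 to 1.86 for Atf3.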

How the data were processed

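Illumina Stranded mRNA libraries were sequenced by the authors as paired reads of 150 nucleotides. The authors trimmed them with Cutadapt and Trimmomatic, discarded reads under 35 nucleotides, used STAR to align the rest to GRCm38, and took fragment counts for Ensembl release 87 genes from STAR itself. The deposited counts are raw, unnormalized whole numbers per gene and pool, with Charme added by name. The deposited FPKM table was left aside, and FPKM was derived from these counts with GENCODE M21 exon lengths (49411 genes matched, and 1000 bp was given to 23 tested genes without a length).

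Genes that reached 10 counts in 2 or more pools were normalized by TMM and tested for genotype with the quasi-likelihood test of edgeR 4.0.16 (R 4.3.3, limma 3.58.1, non-legacy form) and Benjamini-Hochberg adjustment over 14880 genes. A call required an adjusted p under 0.1 and a mean of at least 1 FPKM in 1 genotype. The study's methods name the likelihood ratio test, which was an alternative, as was DESeq2 1.42.0. Fold changes are CharmeKO over CharmeWT, and the SE is their size divided by the root of the F statistic. Per-pool log2 levels used a prior count of 2. The length and GC correction fitted natural splines of 4 degrees of freedom in each pool, and its use on pool levels was added after seeing the data. Other alternatives were the legacy test, RLE and upper-quartile factors, total counts only, other filters, the replicate number as a block, the fit without mitochondrial and salivary gland genes, and each pool left out in turn.

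The members and lists were chosen by gene function, with earlier results of these data known. All 10 members were named, with the 3 most abundant and any called genes of each other regulatory list, marker lists by their sums, and the 5 genes nearest the members' mean profile. One gene selected by this rule is not reported here. Without molecular identifiers in the reads, intervals cover counting error only. Promoter windows were taken from RefSeq on GRCm38.p6.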

Additional observations from a re-analysis of the deposited data

How the results depend on the processing

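With 2 CharmeKO pools, single pools moved several values. Of the 10 genes, 0 were called under every alternative test, scaling, filter and correction tried on all 5 pools, and leaving out each pool in turn gave 0 to 1 called higher and 0 to 5 called lower. The median log2 fold change of the 10 was between -0.75 and -0.10 with each pool left out, the first without CharmeKO pool 2. Fos turned to 0.015 with upper-quartile factors, and ranged from -0.68 to 0.54 with each pool left out, turning without CharmeWT pool 1 and without CharmeKO pool 1. Junb ranged from -0.81 to 0.33 and Nr4a1 from -0.37 to 0.64 in the same way, the signs turning without CharmeKO pool 1. The cause was not tested.

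The other early response genes called numbered 6 by the likelihood ratio test, 7 by DESeq2, 5 with the length and GC correction, 0 when the replicate block was added to it, and 0 to 17 with each pool left out (17 without CharmeKO pool 2). Over all genes, 305 were called, against 933 by the likelihood ratio test, 1122 by DESeq2, 29 with the block and the length and GC correction together, 2 without CharmeWT pool 1, 187 without CharmeWT pool 2, 0 without CharmeWT pool 3, 639 without CharmeKO pool 1 and 4607 without CharmeKO pool 2. The 187, 2 and 0 rest on fewer CharmeWT pools.

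The replicate numbers 1 and 2 occur in both genotypes, but nothing in the labels pairs those pools. Their deviations from the group means correlated across genes at 0.137 for number 1 and 0.0778 for number 2. With 2 CharmeKO pools the deviations of these pools mirror each other. The 2 correlations are thus not independent, and they cannot show whether the pools were paired. The main fit left the number out. With the number as a block, 210 genes and 0 of the 10 were called, the median log2 fold change of the 10 was -0.36, and Nr4a1 turned to -0.055. Total counts alone, which shift the median of all genes in CharmeKO pool 1 by -0.29, put the 10 at -0.96 there.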
